A study of Homo sapiens with 12 samples.

Results

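Mitochondrial ribosomal protein (MRP) genes were followed across the transcriptome of SK-UT-1 cells, an established line derived from a uterine leiomyosarcoma, a malignant smooth muscle tumor. The members were taken by name, as symbols that begin with MRPL or MRPS followed by a number, and 77 of the 22784 symbols measured qualified, 48 MRPL and 29 MRPS. Another 8 pseudogene and 3 antisense symbols with these prefixes were left out. Every group was the same cell line cultured for 48 h, with the DMSO vehicle (VEH in the labels), with 5 µM JQ1 or with 5 µM I-BET 762. Both compounds are BET inhibitors, which displace bromodomain and extra-terminal proteins from acetylated histones. The labels name 12 libraries and 10 of them were analysed: DMSO replicates 13 to 15, JQ1 replicates 17 to 20 and I-BET 762 replicates 21 to 23. DMSO replicate 16 and I-BET 762 replicate 24 have no values in the table and were not analysed here. The methods state that outlier samples were excluded, without naming them. Nothing states that replicates came from separate cultures, so p-values measure the spread between these libraries, which may be technical. All results come from 1 cell line.

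The mitochondrial ribosome (mitoribosome) translates the messages of mitochondrial DNA, which code for core subunits of the respiratory chain and ATP synthase. Its RNA is made inside the organelle, while all of its proteins are made from nuclear genes in the cytosol and imported. Some of these proteins have counterparts in bacterial ribosomes and others were added during the evolution of mitochondria. The table holds 0 symbols with the MT- prefix of mitochondrially encoded genes, and other names for these genes were not searched. Neither the ribosomal RNA partners nor the translated messages were examined here.

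MRP genes lie scattered over the genome, here on 21 chromosomes, and many share a start region with a neighbour on the opposite strand. In the Gencode V44 annotation of hg38, 26 of the 75 members with enough reads to test (34.7%) started within 1000 bases of the start of a protein-coding gene on the other strand, compared with 17.7% of 12856 protein-coding genes tested. The Gencode start was taken as the outermost end of the annotated gene. Promoter sequences (250 bases before to 50 after the start, RefSeq on GRCh38.p14) were matched for 68 of the 77 members. The 230 bases from 200 before to 30 after the start are given here for members chosen as follows. MRPS6 and MRPL48 rose most among matched members when each is ranked by the smaller of its JQ1 and I-BET 762 rises. MRPS15 and MRPL11 were ranked in the same way for falls. MRPL46 starts 63 bases from its divergent partner MRPS11. MRPL36 and MRPL45 were the 2 members that held 3 kinds of the motifs searched, and MRPL36 was taken as the first by name. Capitals mark matches to the letters of 5 motifs searched on both strands, each spelled out with its share of promoters after the sequences.
MRPS6: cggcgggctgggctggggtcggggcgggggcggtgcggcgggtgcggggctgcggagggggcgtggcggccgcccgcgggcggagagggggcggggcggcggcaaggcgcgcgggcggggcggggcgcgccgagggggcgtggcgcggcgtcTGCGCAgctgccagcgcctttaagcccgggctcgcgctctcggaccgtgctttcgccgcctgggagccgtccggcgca
MRPL48: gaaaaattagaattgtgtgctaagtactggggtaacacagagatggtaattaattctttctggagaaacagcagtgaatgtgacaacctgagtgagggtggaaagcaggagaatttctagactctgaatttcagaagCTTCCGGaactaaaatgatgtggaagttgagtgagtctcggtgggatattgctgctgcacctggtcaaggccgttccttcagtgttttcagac
MRPS15: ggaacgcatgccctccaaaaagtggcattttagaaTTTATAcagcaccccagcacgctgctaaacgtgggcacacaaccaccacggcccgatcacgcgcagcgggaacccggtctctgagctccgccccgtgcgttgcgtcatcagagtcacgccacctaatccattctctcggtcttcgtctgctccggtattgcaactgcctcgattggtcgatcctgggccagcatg
MRPL11: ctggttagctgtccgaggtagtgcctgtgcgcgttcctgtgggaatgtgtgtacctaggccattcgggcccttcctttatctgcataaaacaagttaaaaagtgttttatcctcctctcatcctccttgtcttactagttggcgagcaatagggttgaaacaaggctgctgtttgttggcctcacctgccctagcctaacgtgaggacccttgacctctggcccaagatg
MRPL46: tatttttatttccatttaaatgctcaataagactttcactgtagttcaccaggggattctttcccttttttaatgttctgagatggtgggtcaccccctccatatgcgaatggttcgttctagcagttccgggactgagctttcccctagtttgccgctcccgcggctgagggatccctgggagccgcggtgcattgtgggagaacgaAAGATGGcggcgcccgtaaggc
MRPL36: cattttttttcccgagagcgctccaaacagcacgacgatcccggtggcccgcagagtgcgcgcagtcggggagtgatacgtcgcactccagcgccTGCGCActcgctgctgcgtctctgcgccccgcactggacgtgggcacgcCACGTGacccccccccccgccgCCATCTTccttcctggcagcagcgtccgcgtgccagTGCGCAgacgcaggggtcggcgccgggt
MRPS6 lies at chr21:34073378-34073607 (plus strand), MRPL48 at chr11:73787674-73787903 (plus), MRPS15 at chr1:36464355-36464584 (minus), MRPL11 at chr11:66438819-66439048 (minus), MRPL46 at chr15:88467359-88467588 (minus) and MRPL36 at chr5:1799808-1800037 (minus). The YY1 letters of MRPL11 run across the end of the printed stretch and are therefore in lower case. The RefSeq start of a promoter need not be the Gencode start used for neighbours. It was 1799837 beside 1801366 for MRPL36, and 66438848 beside 66466738 for MRPL11.

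The letters CCGGAAG of the ETS family motif stood in 28 of the 68 promoters (41.2%), compared with 18.9% of the 11244 promoters of tested genes and 10.7% of all 27305 promoters of this length. Members held the YY1 letters AAGATGG in 23 promoters (33.8%), compared with 7.29% and 6.06%. For NRF1, a regulator of nuclear genes for mitochondria, the letters TGCGCA were found in 14 (20.6%), compared with 13.4% and 8.42%. The E-box, read as CACGTG and bound by MYC among others, was in 6 (8.82%, compared with 9.96% and 7.44%). A TATA box, read as TATAAA, was in 2 (2.94%, compared with 5.64% and 12.0%). Motifs of different kinds overlapped in 0 of the 68 promoters. The median GC content was 60.7% for members and 65.3% for the promoters of tested genes. These matches describe letters in the window and show no binding.

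**Figure D1:**
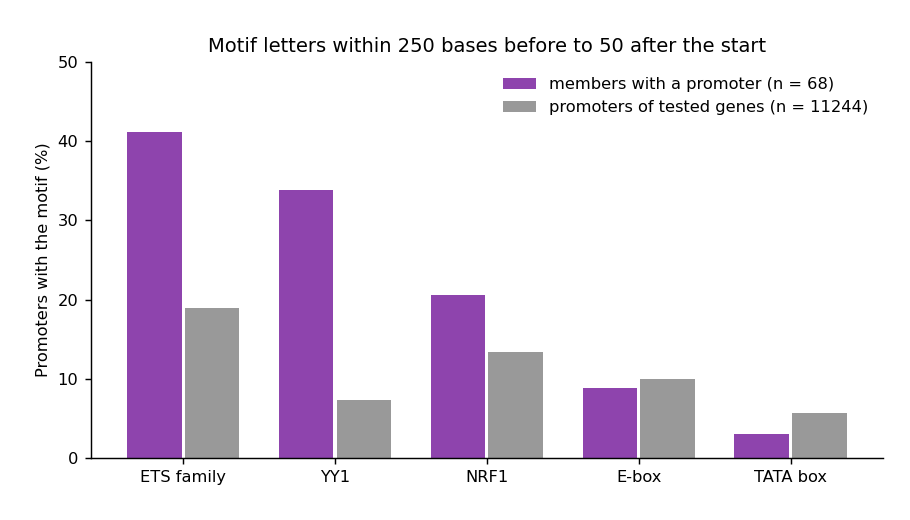
Percent of promoters that hold each set of motif letters on either strand (vertical axis), for 68 members (purple) and 11244 tested genes (grey). The ETS letters stood in 41.2% of member promoters against 18.9%, and the YY1 letters in 33.8% against 7.29%.

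Reads on genes ranged from 35564586 to 39658989 per library. The log2 values deposited by the authors were back-converted to normalized counts (reads divided by the library's size factor), which is the level given for each library below, in the order of the replicate numbers. They depend on gene length and are compared between libraries, not between genes. Log2 differences come from limma, with its standard error (SE), 3 DMSO, 4 JQ1 and 3 I-BET 762 libraries, and an adjusted p (Benjamini-Hochberg over 14839 genes tested). A gene is called higher or lower at an adjusted p under 0.05, and the words rose and fell are kept for such genes. Both inhibitor comparisons share the 3 DMSO libraries. The groups also share 1 estimate of the spread, so the I-BET 762 calls carry the spread of the JQ1 libraries. Those varied most: the members' SD as a percent of the mean had a median of 8.42% with JQ1, 5.22% with DMSO and 4.12% with I-BET 762. In bulk RNA, fewer cells of a type and less RNA per cell cannot be told apart. HEXIM1, a gene commonly read as a response to BET inhibition, rose by 1.53 (log2) with JQ1 and 1.05 with I-BET 762. MYC, also commonly read for this response, was higher rather than lower, by 1.0 with JQ1 and 0.54 with I-BET 762. Of the smooth muscle markers, 7 of 8 were in the table, and their summed level was 22836 to 23485 in the DMSO libraries, 11295 to 12042 with JQ1 and 12839 to 13350 with I-BET 762. The means of ACTA2, TAGLN, CNN1, DES, CALD1 and MYL9 were lower with both inhibitors. That of SMTN was not, at 2324 with DMSO, 2644 with JQ1 and 2657 with I-BET 762. Endothelial and immune markers summed to at most 7.40 and 4.01 normalized counts in any library. The summed epithelial markers were at 1212 to 1271, 511 to 602 and 497 to 544, and the part of either list in the results below was not tested.

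With 75 members above the minimum of 10 normalized counts in 3 libraries, JQ1 gave 32 members higher and 17 lower, 49 in all (65.3%), where 71.7% of all genes tested were called, 36.0% higher and 35.6% lower. I-BET 762 gave 22 higher and 16 lower, 38 in all (50.7%), where the background was 61.1%, 29.9% higher and 31.3% lower. The members' changes were small. With a fold change over 1.5 added to the call, 7 were higher and 6 lower with JQ1 (17.3%), where the background was 36.1%, 13.3% higher and 22.8% lower. With I-BET 762 these were 3 and 2 (6.67%), where the background was 26.9%, 8.96% higher and 17.9% lower. The members' median log2 difference was 0.06 with JQ1 and −0.0013 with I-BET 762, beside 0.0076 and −0.00063 over all genes. Their SD across genes was 0.38 and 0.32, beside 0.97 and 0.79 over all genes. Most members are well read, and among the 11072 genes with a mean of at least 100 normalized counts the all-gene median was 0.07 and 0.04, above that of the 74 members there (0.06 and 0.00074), with an SD of 0.75 and 0.59.

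The scaling moved the balance of directions. With every library rescaled to the same total, the JQ1 median of all genes went from 0.0076 to −0.18 and the I-BET 762 median from −0.00063 to −0.10, and those of the members to −0.13 and −0.098. Under it 19 members were called higher and 35 lower with JQ1 (25.3% and 46.7%), where 23.8% and 46.5% of all genes were, and 13 and 30 with I-BET 762 (17.3% and 40%), where the background was 22.7% and 38.2%. All genes tilted towards lower calls under this scaling as well. The 17 and 16 lower calls were kept, 19 of 32 and 13 of 22 higher calls were kept, and 0 calls turned direction. Reads on members were 0.439% to 0.460% of the reads on genes in the DMSO libraries, 0.384% to 0.414% with JQ1 and 0.408% to 0.421% with I-BET 762, so that neither inhibitor overlapped DMSO. Their summed normalized counts did overlap, at 151114 to 164284, 150719 to 173321 and 151877 to 159191. The plot of log2 differences by subunit gives each tested subunit gene.

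**Figure D2:**
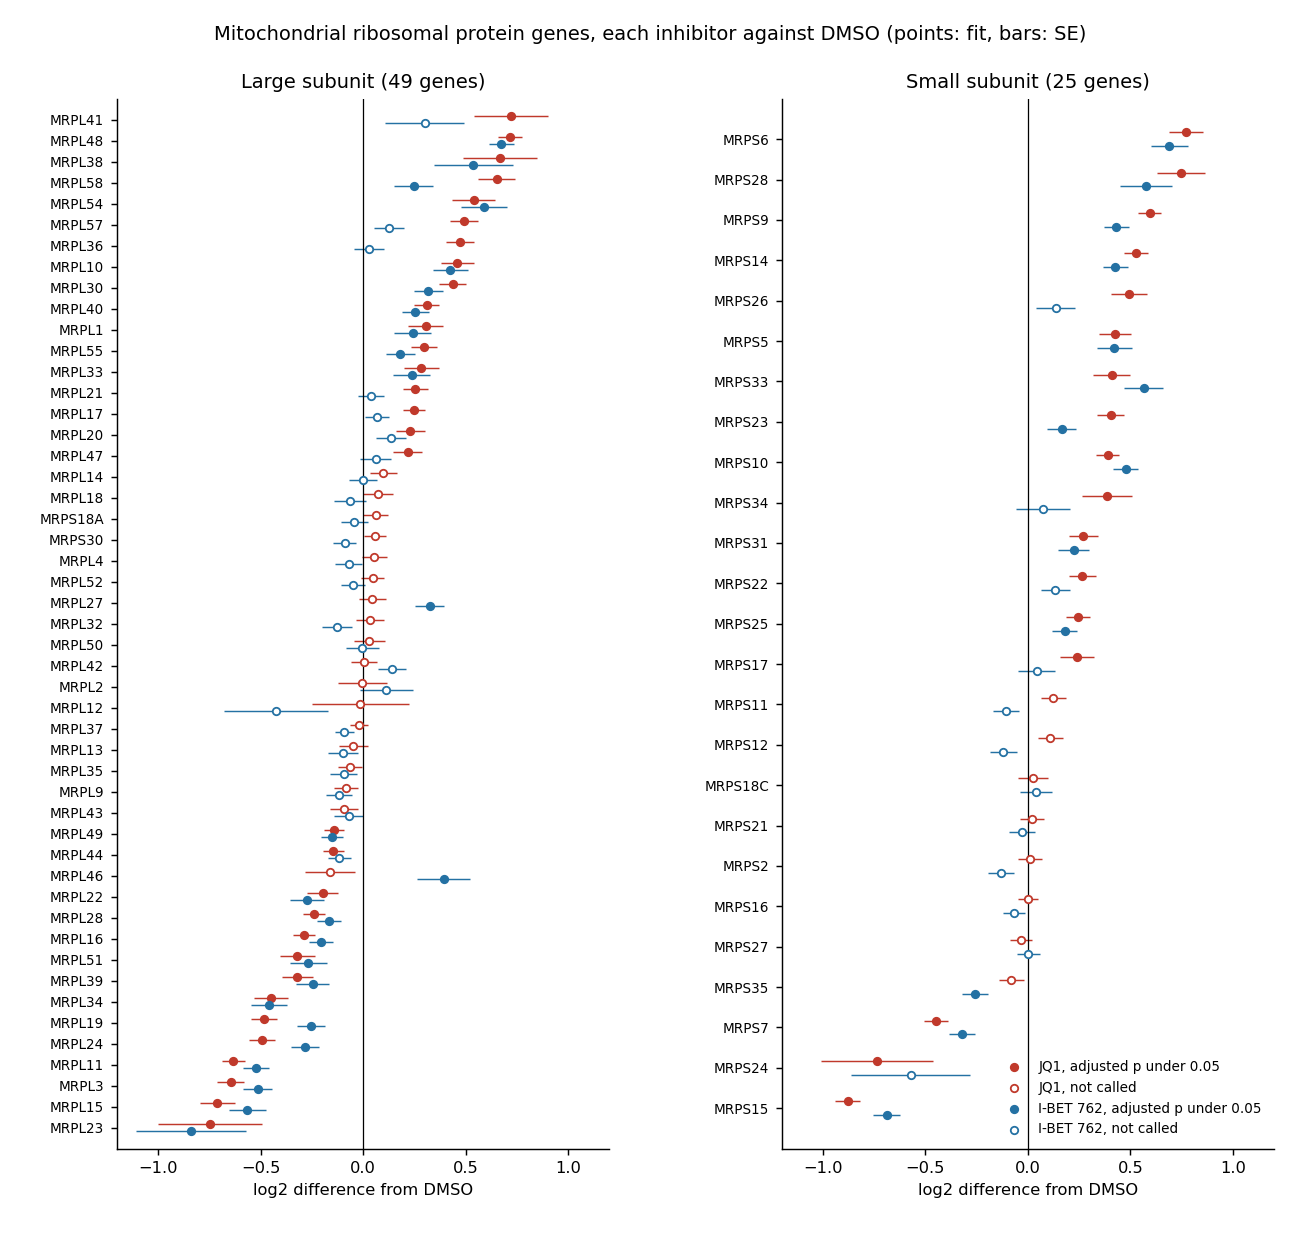
Log2 difference from DMSO (horizontal axis) of each tested large subunit gene (49, left) and small subunit gene (25, right) with JQ1 (red) and I-BET 762 (blue), sorted by the JQ1 value; bars are SE, filled points were called at an adjusted p under 0.05. Points spread to both sides of 0 in the large subunit, and most called small subunit genes lie to the right (14 higher and 3 lower with JQ1). With equal totals these were 9 and 9 of 25, where 23.8% of all genes were higher and 46.5% lower.

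By role, JQ1 called 10 higher and 10 lower among 30 large subunit proteins with a bacterial counterpart, and 7 higher and 4 lower among 19 mitochondria-specific ones. In the small subunit it called 7 higher and 3 lower of 16 with a counterpart, and 7 higher and 0 lower of 9 mitochondria-specific genes. Of all genes tested, JQ1 called 36.0% higher and 35.6% lower. The median log2 difference was 0.03 for the 49 large subunit genes and 0.24 for the 25 small subunit genes. With I-BET 762 the large subunit had 12 higher and 13 lower, median −0.05, and the small subunit 10 higher and 3 lower, median 0.07. Its background was 29.9% higher and 31.3% lower. The difference between subunits was not tested. With equal totals the large subunit had 10 higher and 26 lower with JQ1 (median −0.15) and 6 and 22 with I-BET 762 (−0.15), and the small subunit 9 and 9 (0.06) and 7 and 8 (−0.02). The background under this scaling was 23.8% higher and 46.5% lower with JQ1, and 22.7% and 38.2% with I-BET 762. Relative to the median of all genes, which this scaling moved too, the small subunit median stood 0.24 higher with JQ1 and 0.08 higher with I-BET 762 before it and 0.23 and 0.08 after it, and the large subunit 0.03 and −0.05 before and 0.02 and −0.05 after.

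A set of 35 members (46.7%) was called with both inhibitors in the same direction, 20 higher and 15 lower, where 56.4% of all genes tested were, 27.6% higher and 28.8% lower. The comparisons share the DMSO libraries, and opposite calls were made for 0 members and for 0.182% of all genes. JQ1 alone reached the threshold for 14 members (18.7%) and I-BET 762 alone for 3 (4%), compared with 15.1% and 4.56% of all genes tested. Neither did for 23 members. The 20 higher with both were MRPL1, MRPL10, MRPL30, MRPL33, MRPL38, MRPL40, MRPL48, MRPL54, MRPL55, MRPL58, MRPS5, MRPS6, MRPS9, MRPS10, MRPS14, MRPS23, MRPS25, MRPS28, MRPS31 and MRPS33. The 15 lower with both were MRPL3, MRPL11, MRPL15, MRPL16, MRPL19, MRPL22, MRPL23, MRPL24, MRPL28, MRPL34, MRPL39, MRPL49, MRPL51, MRPS7 and MRPS15. Among promoters matched, the ETS letters stood in 11 of 18 of the higher set and 4 of 13 of the lower set, and the YY1 letters in 2 of 18 and 5 of 13, with no test made.

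The largest rise with JQ1 was that of MRPS6, the counterpart of a bacterial protein of the small subunit platform. MRPS6 was at 677, 696 and 705 normalized counts in the DMSO libraries, 992, 1359, 1162 and 1254 in the JQ1 libraries and 1156, 1132 and 1067 in the I-BET 762 libraries. Every inhibitor library stood above every DMSO library. The log2 difference was 0.77 ± 0.084 SE, adjusted p = 5.36e-07 with JQ1, and 0.69 ± 0.090 SE, adjusted p = 6.86e-06 with I-BET 762. SLC5A3, a myo-inositol transporter gene whose exons share 9.48% of the MRPS6 exon bases on the same strand (with an unnamed gene), rose by 0.94 and 0.76, and its part in the MRPS6 difference was not tested.

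MRPS28, the counterpart of bacterial S1, was low in all libraries, at 105, 98.9 and 97.4 normalized counts with DMSO, 163, 190.4, 159 and 165 with JQ1 and 168, 152 and 132 with I-BET 762. Every inhibitor library stood above DMSO, and the gene rose by 0.75 ± 0.118 SE, adjusted p = 3.25e-05 with JQ1 and 0.58 ± 0.126 SE, adjusted p = 0.000933 with I-BET 762. MRPL48, a mitochondria-specific protein of the central protuberance of the large subunit, stood at 911, 982 and 902 in the DMSO libraries, 1512, 1652, 1459 and 1504 with JQ1 and 1492, 1533 and 1434 with I-BET 762. The groups did not overlap, and the difference had a smaller SE than those of MRPS6 and MRPS28, 0.72 ± 0.058 SE, adjusted p = 1.67e-08 with JQ1 and 0.67 ± 0.062 SE, adjusted p = 1.51e-07 with I-BET 762. MRPL48 shares 0 exon bases with another gene on either strand.

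MRPL54, a mitochondria-specific large subunit protein, was at 755, 909 and 876 with DMSO, 1377, 1276, 1291 and 999 with JQ1 and 1474, 1213 and 1148 with I-BET 762. All inhibitor libraries exceeded the highest DMSO library, and the group means differed by 0.54 ± 0.106 SE, adjusted p = 0.000271 with JQ1 and 0.59 ± 0.113 SE, adjusted p = 0.000311 with I-BET 762. MRPS33, a mitochondria-specific small subunit protein, rose by 0.41 ± 0.088 SE, adjusted p = 0.000622 with JQ1 and 0.57 ± 0.094 SE, adjusted p = 8.43e-05 with I-BET 762. Its libraries read 1062, 1157 and 1112 with DMSO, 1337, 1833, 1357 and 1414 with JQ1 and 1669.8, 1688 and 1572 with I-BET 762, with JQ1 replicate 18 apart from the other JQ1 libraries. Without JQ1 replicate 18 the difference between the inhibitors, not called with all libraries, was −0.26 (adjusted p = 0.0013), and with equal totals it was −0.25 (adjusted p = 0.025).

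MRPL38, another protein of the central protuberance, was read at 87.2, 102 and 83.7 normalized counts with DMSO, 192, 126, 145 and 124 with JQ1 and 110.2, 177 and 117 with I-BET 762. The libraries of each inhibitor were above those of DMSO but spread widely. It rose by 0.67 ± 0.180 SE, adjusted p = 0.00356 with JQ1, and by 0.54 ± 0.193 SE, adjusted p = 0.0243 with I-BET 762. The second call was lost without I-BET 762 replicate 22 (adjusted p = 0.159), without DMSO replicate 13 (0.0612) or 15 (0.0767), with equal totals (0.0738) and without the intensity trend (0.0565).

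The 5 members with a mean under 200 normalized counts were MRPL2, MRPL12, MRPL38, MRPS24 and MRPS28. The share of their exon bases that another annotated gene covers on the same strand was 29.2%, 69.5%, 41.1%, 23.2% and 35.8%, and 13 members in all had over 10%. Its part in their levels was not tested.

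**Figure D3:**
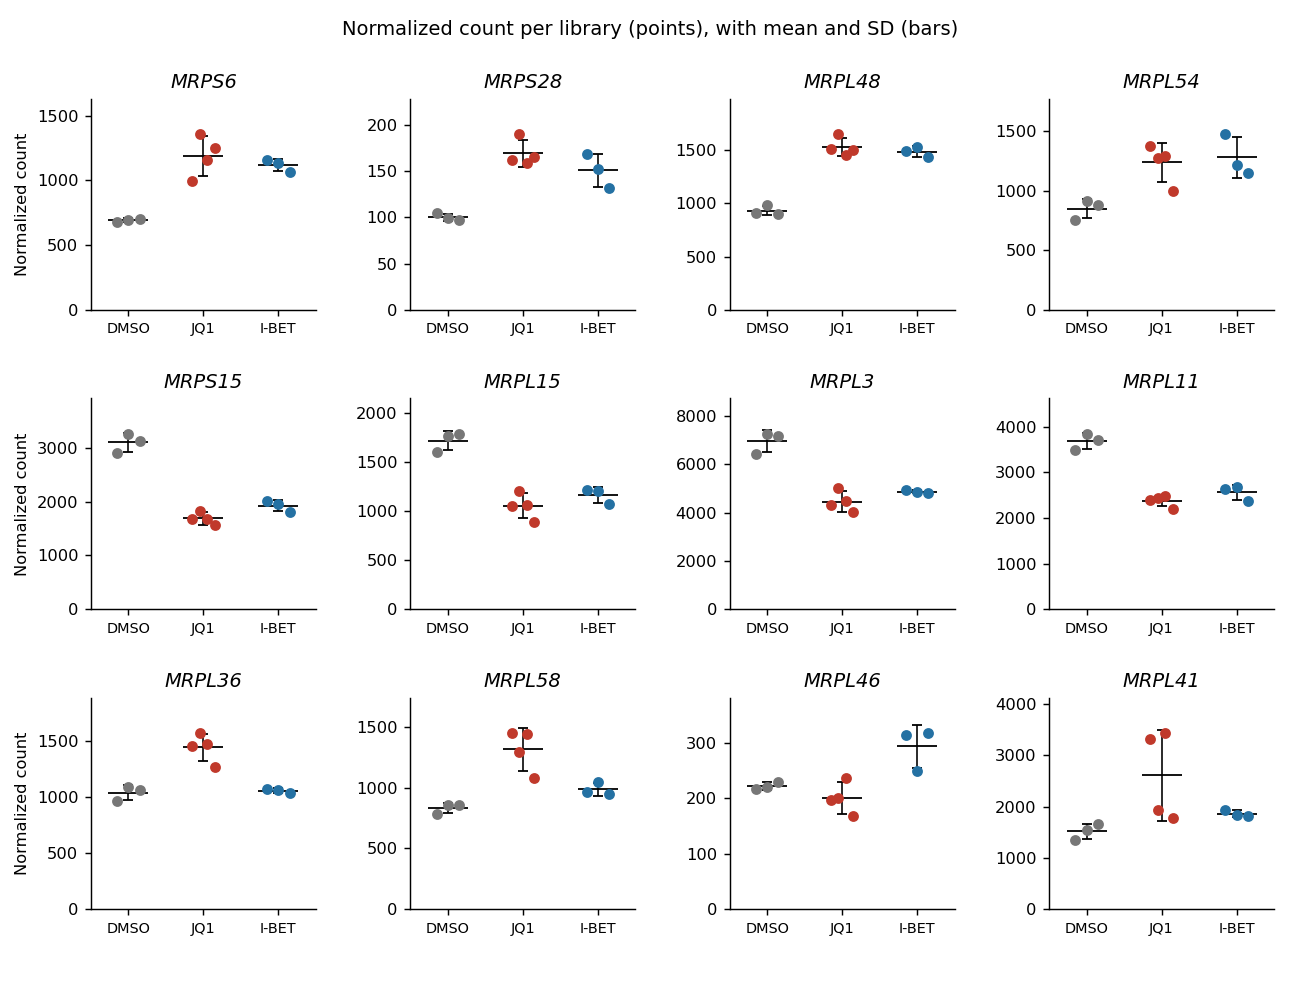
Normalized counts per library (vertical axes, from 0) of 12 members in the DMSO, JQ1 and I-BET 762 groups; each point is a library, and bars show mean and SD. The inhibitor libraries of MRPS6, MRPS28, MRPL48 and MRPL54 lie above DMSO and those of MRPS15, MRPL15, MRPL3 and MRPL11 below, while the 4 JQ1 libraries of MRPL41 fall into a high and a low pair.

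The largest fall with JQ1 was that of MRPS15, the counterpart of a bacterial protein that binds the small ribosomal RNA early in assembly. MRPS15 was at 2902, 3263 and 3133 with DMSO, 1681, 1834, 1673 and 1559 with JQ1 and 2007, 1953 and 1805 with I-BET 762. All inhibitor libraries lay well below DMSO, with no overlap. The level fell to 0.544 times that of DMSO with JQ1 (log2 −0.88 ± 0.062 SE, adjusted p = 3.40e-09) and 0.62 times with I-BET 762 (log2 −0.69 ± 0.067 SE, adjusted p = 2.62e-07).

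The next falls with JQ1 in size, those of MRPL23 and MRPS24, had wide errors and follow further on. Among the members lower with both inhibitors were also 3 large subunit proteins with bacterial counterparts. MRPL15 stood at 1603, 1762 and 1789 with DMSO, 1056, 1206, 1063 and 893 with JQ1 and 1214, 1204 and 1068 with I-BET 762, and fell by 0.71 and 0.56 on the log2 scale. MRPL3, whose bacterial counterpart reaches towards the peptidyl transferase centre, was at 6441, 7267 and 7174 with DMSO, 4319, 5014, 4481 and 4010.3 with JQ1 and 4945, 4847 and 4804 with I-BET 762. MRPL11, which forms the base of the stalk where translation factors bind, was at 3489.5, 3847 and 3708, 2382, 2436, 2477 and 2202 and 2632, 2681 and 2380.3. In each of the 3 genes every inhibitor library was below every DMSO library. The log2 differences of MRPL3 were −0.65 ± 0.065 SE, adjusted p = 2.21e-07 with JQ1 and −0.51 ± 0.070 SE, adjusted p = 1.02e-05 with I-BET 762, and those of MRPL11 were −0.63 ± 0.058 SE, adjusted p = 6.68e-08 and −0.52 ± 0.062 SE, adjusted p = 2.36e-06.

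MRPL34 fell with both inhibitors by a similar amount, −0.45 ± 0.081 SE, adjusted p = 0.000115 with JQ1 and −0.46 ± 0.086 SE, adjusted p = 0.000255 with I-BET 762. It read 1040.2, 1127 and 1063 normalized counts with DMSO, 871, 693, 872 and 731 with JQ1 and 809, 786 and 754 with I-BET 762, with no overlap of either inhibitor with DMSO.

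MRPL23, which lines the exit of the polypeptide tunnel, was called lower with both inhibitors, but on widely spread libraries. It read 445, 359 and 703 with DMSO, 354, 254, 340.1 and 222 with JQ1 and 433, 193 and 232 with I-BET 762, and 1 I-BET 762 library lay within the DMSO range. The difference was −0.75 ± 0.251 SE, adjusted p = 0.0144 with JQ1 and −0.84 ± 0.269 SE, adjusted p = 0.0132 with I-BET 762. Without DMSO replicate 15 both calls were lost (−0.48, adjusted p = 0.112, and −0.57, adjusted p = 0.0862), as was the second without I-BET 762 replicate 22 (0.081) or 23 (0.0597). Without the intensity trend both were lost (0.0668 and 0.0652). MRPL23 carries the same value in every library as LOC107987373, and 94.4% of its exon stretches of 75 bases have an exact copy on another contig of the hg38 reference.

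MRPS24, the counterpart of bacterial S3, was the least read of the tested members, at 34.9, 41.6 and 30.9 with DMSO, 25.3, 14.1, 24 and 22.3 with JQ1 and 17.7, 22.1 and 33.5 with I-BET 762. With JQ1 all libraries were below DMSO and the gene fell (−0.74 ± 0.271 SE, adjusted p = 0.0235), while the I-BET 762 libraries overlapped DMSO (−0.57 ± 0.290 SE, adjusted p = 0.1). The JQ1 call was lost without DMSO replicate 13 (adjusted p = 0.0524) or 14 (0.0974), or JQ1 replicate 18 (0.0674). The I-BET 762 difference was called without replicate 23 (−0.82, adjusted p = 0.0347).

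Other members were named for their role. MRPL10 and MRPL12 build the stalk that recruits translation factors. MRPL10 was at 1328, 1247 and 1156 with DMSO, 1459, 1889, 1657 and 1860.1 with JQ1 and 1739, 1642 and 1618 with I-BET 762, and rose without overlap by 0.46 ± 0.080 SE, adjusted p = 8.51e-05 and 0.42 ± 0.085 SE, adjusted p = 0.000475. MRPL12 was at 125, 165 and 187 with DMSO, 208, 119, 234 and 101 with JQ1 and 119, 111 and 120.1 with I-BET 762. Its JQ1 libraries split, with replicates 17 and 19 above all DMSO libraries and replicates 18 and 20 below all of them, and neither comparison was called (−0.01 ± 0.236 SE, adjusted p = 0.962 with JQ1, −0.43 ± 0.253 SE, adjusted p = 0.157 with I-BET 762). The latter was called when DMSO and I-BET 762 were fitted alone (adjusted p = 0.0125).

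Leaving out pairs of JQ1 libraries, an alternative chosen after seeing the data, gave MRPL12 a difference from DMSO of −0.51 (adjusted p = 0.0142) without replicates 17 and 19 and 0.49 (adjusted p = 0.0075) without 18 and 20. MRPL41, a mitochondria-specific large subunit protein, was split in the same way. It was at 1356, 1545 and 1654 with DMSO, 3321, 1925, 3434 and 1773 with JQ1 and 1940.4, 1833 and 1817 with I-BET 762. Its rise with JQ1 was 0.72 ± 0.180 SE, adjusted p = 0.00197, and the I-BET 762 difference of 0.30 ± 0.193 SE, adjusted p = 0.19 was called when those groups were fitted alone (adjusted p = 0.000206). Without JQ1 replicates 17 and 19 the rise of MRPL41 was 0.29 (adjusted p = 0.00494) and without 18 and 20 it was 1.16 (adjusted p = 3.09e-12). Its difference between the inhibitors, 0.42 (adjusted p = 0.0952) with all libraries, was −0.01 (adjusted p = 0.933) and 0.86 (adjusted p = 6.51e-09) in these fits. A gap over 0.5 (log2) between these pairs of JQ1 libraries occurred in 2 of 75 members and in 2.37% of all genes tested. By order alone, whatever the size of the gap, these pairs separated in 25 members (33.3%) and 37.4% of all genes. Replicates 17 and 20 separated from 18 and 19 in 34 members (45.3%) and 30.9% of all genes. They were the lower pair in 31 members (41.3%) and 17.3% of all genes, and the higher pair in 3 (4%) and 13.7%. A gap over 0.5 between these pairs occurred in 0 members and 1.375% of all genes.

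The MRPS18 paralogs occupy different places. MRPS18A sits in the large subunit, and MRPS18B and MRPS18C in the small one. MRPS18A was at 1370.4, 1427 and 1298 with DMSO, 1347, 1463, 1483 and 1405 with JQ1 and 1391, 1370.5 and 1217 with I-BET 762, with overlapping groups and differences of 0.06 and −0.04. MRPS18C was at 1366, 1523 and 1457, 1375, 1709, 1475 and 1365 and 1524, 1519 and 1421, again overlapping (0.03 and 0.04), and with equal totals its JQ1 difference was −0.16 (adjusted p = 0.0297), where the median of all genes was −0.18.

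MRPS18B and MRPL45, the protein that tethers the large subunit to the inner membrane, were the 2 members not tested. Each had at most 3 reads in any library, within the limit that a count of 0 allows (3 reads, counting error alone), so these counts can show no difference. Of their 75-base exon stretches, 100% and 95% had an exact copy on another contig of the hg38 reference, as did most of those of MRPL23 and MRPS36. How reads with several matches were counted is not given in the sources used here, and the part of the copies in these low counts was not tested.

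MRPL44, a protein related to RNase III, was at 1488, 1503 and 1526 with DMSO, 1331, 1436, 1396 and 1285 with JQ1 and 1386, 1398 and 1381 with I-BET 762. It fell slightly with JQ1 (−0.15 ± 0.052 SE, adjusted p = 0.0199), a call lost without DMSO replicate 14 (adjusted p = 0.0513) or 15 (0.0702). The I-BET 762 libraries were also below DMSO, but the difference of −0.12 ± 0.056 SE, adjusted p = 0.0809 was called without JQ1 replicate 18 (adjusted p = 0.0419), with DMSO and I-BET 762 fitted alone (0.0299) and with equal totals (−0.21, 0.00159). MRPS36 carries an MRP name but is a subunit of the 2-oxoglutarate dehydrogenase complex. It was at 722, 674 and 671, 899, 876, 780.3 and 794 and 727, 571 and 773, and rose with JQ1 (0.28 ± 0.091 SE, adjusted p = 0.0122) but was not called with equal totals (0.09, adjusted p = 0.395).

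Whether the inhibitors differed was tested directly. Between JQ1 and I-BET 762, 12 members were called higher with JQ1 and 5 lower, 17 in all (22.7%), where the background was 27.3%, 13.3% higher and 14.0% lower. At an unadjusted p under 0.05 there were 25 (background 38.7%). By limma 0 members were called with over 1.5-fold, where the background was 5.31%, 1.73% higher and 3.59% lower. The median log2 difference was 0.07, beside −0.00012 over all genes. With equal totals 5 were higher and 14 lower (6.67% and 18.7%), where 6.75% and 23.8% of all genes were, and the median of all genes moved to −0.09. Single libraries also decided the counts: 20 were higher without JQ1 replicate 20, 7 without I-BET 762 replicate 22 and 5 without 23, and 11 were lower without JQ1 replicate 18, 3 without JQ1 replicate 19, 3 without I-BET 762 replicate 21 and 2 without 22. Shares of all genes tested were not counted in these fits, so the shifts are not shown to be particular to the members. For the 58 members not called, the 95% interval lay within 1.5-fold in either direction for 54, and beyond it for MRPL12, MRPL23, MRPL41 and MRPS24.

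MRPL36, a short zinc-binding protein whose promoter is printed above, had the largest difference towards JQ1. It was at 966, 1090.0 and 1061 with DMSO, 1454, 1571, 1475 and 1273 with JQ1 and 1075, 1063 and 1038 with I-BET 762. The JQ1 libraries were above all others, and I-BET 762 lay within the DMSO range. JQ1 exceeded I-BET 762 by 0.44 ± 0.069 SE, adjusted p = 0.000273 (log2). MRPL58, a peptidyl-tRNA hydrolase that is built into the central protuberance and rescues stalled mitoribosomes, was at 784, 859 and 859 with DMSO, 1452, 1295, 1443 and 1079 with JQ1 and 964, 1049 and 953 with I-BET 762. The 3 groups did not overlap and JQ1 was highest, by 0.40 ± 0.088 SE, adjusted p = 0.00337 over I-BET 762. It rose with JQ1 (0.65 ± 0.088 SE, adjusted p = 6.49e-06) and with I-BET 762 (0.25 ± 0.094 SE, adjusted p = 0.0339), the latter lost without any one of DMSO replicates 13 and 15 and the 3 I-BET 762 libraries (adjusted p of 0.0502 to 0.127), with equal totals (0.193) and equal upper quartiles (0.0641), and without the intensity trend (0.0855).

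MRPL57 and MRPS26, mitochondria-specific proteins of the large and the small subunit, followed. MRPL57 read 1128, 1089 and 1120.2 with DMSO, 1615, 1566, 1742 and 1362 with JQ1 and 1231, 1234 and 1177 with I-BET 762, and MRPS26 1750.1, 1929 and 2002, 2958, 2398, 3073 and 2305 and 1969.9, 2182 and 2084. In both the JQ1 libraries were the highest, by 0.37 ± 0.070 SE, adjusted p = 0.00126 for MRPL57 and 0.36 ± 0.089 SE, adjusted p = 0.00767 for MRPS26 over I-BET 762. MRPS26 was not called without JQ1 replicates 17 and 19 (0.18, adjusted p = 0.0805). MRPS12, at the decoding centre, was at 1825, 2128 and 1911 with DMSO, 2089, 2149, 2209 and 1976 with JQ1 and 1900.1, 1744 and 1743 with I-BET 762. Neither inhibitor was called against DMSO (0.11 and −0.12), but they differed from each other by 0.23 ± 0.061 SE, adjusted p = 0.0116, a call lost without I-BET 762 replicate 22 (0.0591) or 23 (0.06) and with equal totals (0.0719). Its I-BET 762 difference was called with equal totals (−0.22, adjusted p = 0.00604).

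MRPL46, of the central protuberance, went the other way. It was at 217, 220.0 and 230.2 with DMSO, 197, 200.2, 237 and 167 with JQ1 and 315, 249 and 318 with I-BET 762, so that the I-BET 762 libraries were above all others and JQ1 overlapped DMSO. It rose with I-BET 762 (0.39 ± 0.129 SE, adjusted p = 0.0154; not without replicate 21, adjusted p = 0.0677, or 23, 0.0712, or with equal totals, 0.067), and JQ1 was below I-BET 762 by −0.55 ± 0.121 SE, adjusted p = 0.00341. With equal totals it was called lower with JQ1 than with DMSO (−0.34, adjusted p = 0.0225). Its partner MRPS11, which starts 63 bases away on the other strand, was at 1939.9, 2048 and 1897, 2091, 2258, 2236 and 1979.8 and 1946, 1813 and 1709.9, and was higher with JQ1 than with I-BET 762 (0.23 ± 0.060 SE, adjusted p = 0.01; 0.14, adjusted p = 0.0566, with equal totals). The pair of genes that share a start region differed between the inhibitors in opposite directions.

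**Figure D4:**
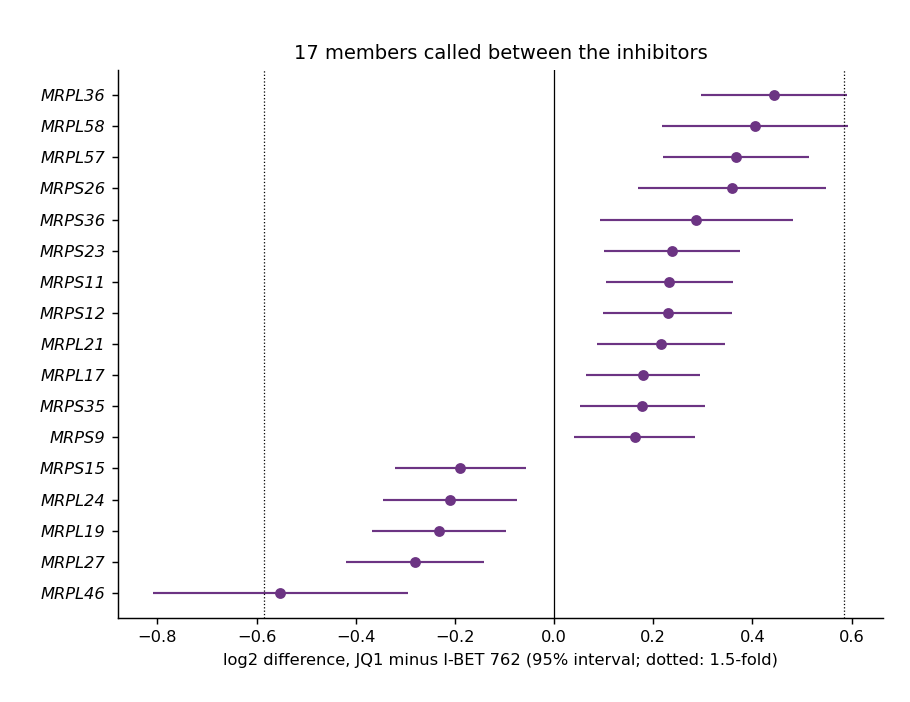
Log2 difference between JQ1 and I-BET 762 (horizontal axis, positive where JQ1 is higher) of the 17 members called in that comparison; bars are 95% intervals, dotted lines 1.5-fold. MRPL36 (0.44) is highest and MRPL46 (−0.55) lowest, and no point lies past 1.5-fold.

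Of the 35 members called with both inhibitors, 28 (80.0%) had the larger difference with JQ1, as did 77.3% of all genes so called, and 6 (17.1%, compared with 33.4%) were called between the inhibitors. The median absolute log2 difference of the 35 was 0.45 with JQ1 and 0.32 with I-BET 762, beside 0.67 and 0.53 over all genes so called. Of the 14 called with JQ1 alone, 6 (42.9%) were called between the inhibitors, compared with 37.7% of all such genes. All 3 of those called with I-BET 762 alone (MRPL27, MRPL46 and MRPS35) were, compared with 34.8% of all such genes. For the other 8 of the 14, a difference between the inhibitors was not shown.

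Among neighbours with Gencode starts within 1000 bases on opposite strands, MRPL46 and MRPS11 were counted from each side. In all, 24 combinations of a member and its partner were tested. With JQ1 both genes were called in 10, in the same direction in 6 and opposite in 4, and with I-BET 762 in 5, 2 in the same direction and 3 opposite. Of 2078 such combinations over all protein-coding genes tested, both were called in 53.2% with JQ1, 602 in the same direction and 503 opposite, and in 36.4% with I-BET 762, 402 and 355. Examples of each, chosen after their values were seen, are MRPL36 with NDUFS6 and MRPS7 with GGA3. MRPL36 and NDUFS6, a complex I gene, were both higher with JQ1 (0.47 and 0.34), but the promoter printed for MRPL36 has another start. MRPS7 fell by 0.45 with JQ1 and GGA3 rose by 0.36. Of genes on the same strand, BABAM2 covers 21.2% of the exon bases of MRPL33 and fell by 1.22 and 0.92, while MRPL33 rose (0.28 ± 0.085 SE, adjusted p = 0.00708 with JQ1, 0.24 ± 0.091 SE, adjusted p = 0.0337 with I-BET 762; neither called with equal totals).

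Other genes of the pathway were counted on lists chosen by function. Over all genes tested, 36.0% were higher and 35.6% lower with JQ1, and 29.9% and 31.3% with I-BET 762. With equal totals these shares were 23.8% and 46.5%, and 22.7% and 38.2%. Among 5 mitoribosome proteins under other names, 2 were higher and 1 lower with JQ1, and 2 and 2 with I-BET 762 (with equal totals 1 and 1, and 2 and 2). DAP3, a GTP-binding small subunit protein, rose by 0.50 with JQ1 and 0.27 with I-BET 762 and differed between them (0.23), and GADD45GIP1, a large subunit protein, fell with I-BET 762 (−0.35) with a JQ1 difference of 0.08. Of 16 mitochondrial translation factors, 9 were higher and 4 lower with JQ1, and 6 and 4 with I-BET 762 (7 and 6, and 5 and 4, with equal totals). MTRES1, a rescue factor of stalled mitoribosomes, rose by 1.02 and 0.77, and MTRF1, a release factor, fell by 1.15 and 0.78.

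Of 25 tested genes of mitoribosome assembly and rRNA modification, 12 were higher and 5 lower with JQ1, and 8 and 5 with I-BET 762 (6 and 10, and 7 and 9, with equal totals). The GTPase NOA1 rose by 0.70 and 0.51, and RCC1L fell by 0.52 and 0.72. Of 12 genes of mitochondrial transcription and DNA maintenance, 3 were higher and 3 lower with either inhibitor (3 and 4 with equal totals). POLG2, the accessory subunit of the mitochondrial DNA polymerase, rose by 0.69 and 0.62, while the exonuclease gene MGME1 fell by 0.55 and 0.58. The aminoacyl-tRNA synthetases had 4 higher and 6 lower of 16 with JQ1, and 4 and 4 with I-BET 762, and 3 and 10, and 2 and 7, with equal totals. Among them MARS2 rose by 1.08 and 0.66 and FARS2 fell by 0.74 and 0.92. Of 8 regulators, 5 were higher and 1 lower with JQ1, and 2 and 2 with I-BET 762 (2 and 2, and 2 and 3, with equal totals). MYC rose by 1.0 and 0.54, and the coactivator gene PPARGC1B fell by 0.74 and 0.88.

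Beside these, the cytosolic ribosomal protein genes were called mostly in one direction, 66 higher and 2 lower of 82 with JQ1 and 50 and 2 with I-BET 762, with medians of 0.36 and 0.22 (48 and 10, and 33 and 7, with equal totals). The nuclear genes of oxidative phosphorylation, whose complexes contain the proteins that the mitoribosome makes, had 31 higher and 12 lower of 77 with JQ1, and 20 and 11 with I-BET 762, with medians of 0.08 and 0.06, beside the members' 0.06 and −0.0013. With equal totals these became 17 and 31, and 17 and 22.

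**Figure D5:**
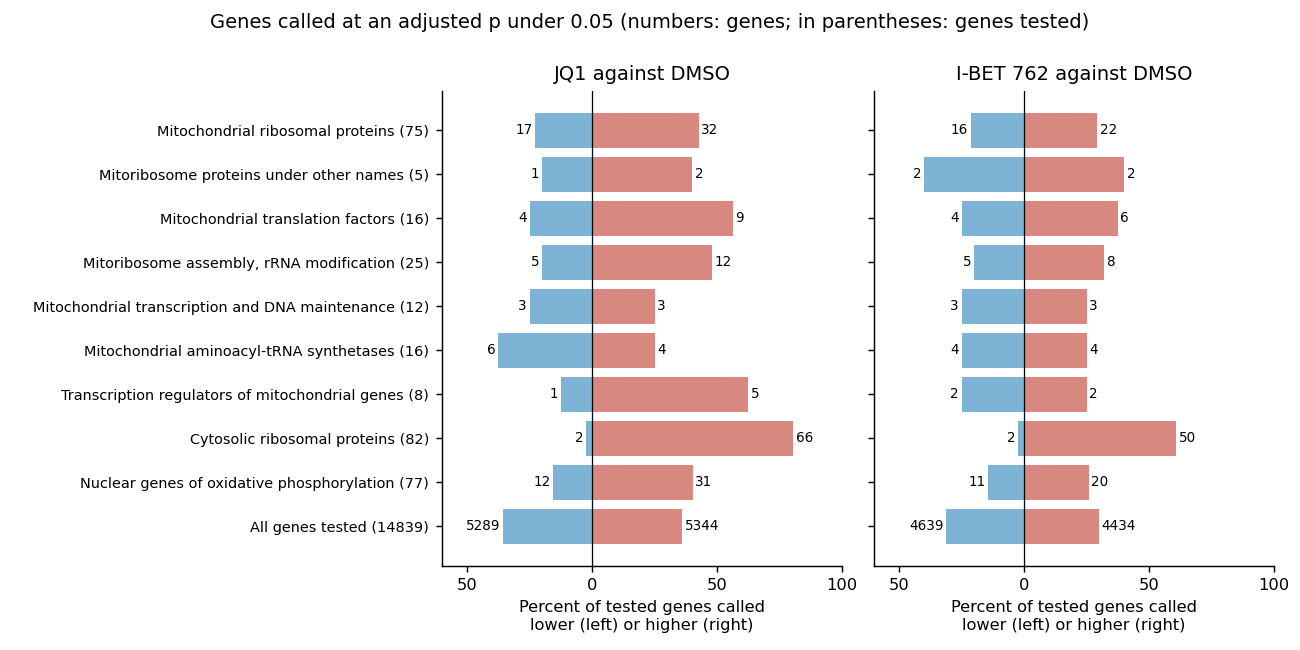
Percent of tested genes called lower (left of 0) or higher (right) with JQ1 (left panel) and I-BET 762 (right panel), for the members, the pathway lists and all genes; numbers beside the bars count genes. The members had 32 higher and 17 lower of 75 with JQ1, and the cytosolic ribosomal proteins 66 higher and 2 lower of 82. With equal totals these were 19 and 35, and 48 and 10, where 23.8% of all genes were higher and 46.5% lower.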

How the data were processed

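RNA-seq was measured on strand-specific total RNA libraries sequenced on an Illumina NovaSEQ6000. According to the methods and the submitters' processing notes, FastQC 0.73 and Trimmomatic were used for quality control and trimming, and reads were placed on hg38 by HISAT2 2.2.1, counted with featureCounts 2.0.3 on Gencode V41 and normalized with DESeq2, and outlier samples were excluded. The strand setting and the handling of reads with several matches are not given in the sources used here. The values deposited by the authors are log2(normalized count + 1), 1 per symbol and library. The table holds 692 symbols beginning with LOC, a RefSeq style of name.

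Undoing the log2 and the pseudocount of 1 gave whole multiples of 1 step for 99.7% to 99.8% of values (within 0.01 reads), which gave size factors of 0.910 to 1.10 and the reads. Genes with a normalized count of at least 10 in at least 3 libraries were fitted in 1 model over the 10 libraries with limma 3.58.1 in R 4.3.3 (empirical Bayes with an intensity trend), tested first on simulated data. The log2 scale understates changes of low counts. The chi-square per gene between replicates was 2.77 to 7.32 in DMSO, 5.38 to 22.1 in JQ1 and 3.34 to 5.21 in I-BET 762. Of the 12 pairs, 0 were identical. Exon stretches were compared with hg38 by minimap2 2.31-r1302. Arrays of values were handled in Python 3.11.15.

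Members named with full values were, per inhibitor, the 5 largest rises and falls among those called without overlap with DMSO, the 5 largest differences between inhibitors, the MRPS18 paralogs and members of known role (MRPL10, MRPL12, MRPL58, MRPS12, MRPL44, MRPL45, MRPS36). From each pathway list the 2 largest changes were named. The members, lists and rules were chosen with earlier results of these data known. Alternatives covered scaling, pseudocount, filter, trend, fold threshold, the groups fitted, limma-voom on the recovered reads and leaving out libraries.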

Additional observations from a re-analysis of the deposited data

Results flagged for a closer look

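In the JQ1 group, the group with 4 libraries, 1 library lay apart from the other 3 (a gap past Dixon's 95% critical share of the range) for 8 of the 77 members. Chance flags about 1 in 20 groups. The members are read in the same libraries, so their flags are not separate draws, and the share of all genes flagged was not counted.

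MRPL1, the counterpart of a protein of the bacterial L1 stalk, read 2379.5 normalized counts in JQ1 replicate 18, and 1750 to 1821 in the others. MRPL42, a mitochondria-specific large subunit protein, read 7567 in the same library (others 6156 to 6381), and MRPS33 read 1833 there (others 1337 to 1414). MRPL55 read 1360 (1359.6) in replicate 19, with the others at 1198 to 1221. Replicate 20 was low for MRPL28, at 2323 (others 2593 to 2616), and for MRPS16, at 3966 (others 4297 to 4351). MRPL45, at 1.09 in replicate 18, and MRPS18B, at 1.10 in replicate 17, were flagged on a single read, with 0 in the other JQ1 libraries, below the limit that a count of 0 allows.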

How the results depend on the processing

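No paired analysis was possible because each library carries its own number, from 13 to 24, and none is shared between groups. Rescaling to equal totals moved the members called higher and lower to 19 and 35 with JQ1, 13 and 30 with I-BET 762, and 5 and 14 between the inhibitors, and the medians to −0.13, −0.098 and −0.023. Requiring 1.5-fold left 7 and 6, 3 and 2, and 0 and 0, and requiring 1.2-fold left 14 and 10 with I-BET 762 and 5 and 2 between the inhibitors. Without the intensity trend 3 were lower between the inhibitors. Leaving out JQ1 replicates 17 and 19 gave 6 higher and 2 lower between the inhibitors, and leaving out 18 and 20 gave 21 and 11, both chosen after seeing the data. Leaving out 1 library at a time gave 28 to 34 higher and 13 to 18 lower with JQ1 (median 0.04 to 0.09), 15 to 24 and 11 to 20 with I-BET 762 (−0.02 to 0.03), and 5 to 20 and 2 to 11 between the inhibitors (0.04 to 0.10). Shares of all genes tested were not counted for the 1.2-fold calls, the fit without the trend or the fits with libraries left out. Equal totals moved the median of all genes as well (to −0.18, −0.10 and −0.09), and MRPS18C with JQ1 turned with it (0.03 to −0.16). The direction also turned for MRPL12 with JQ1 without replicates 18 and 20 (0.49). The cause was not tested beyond what each alternative changes by construction. Limma-voom, other pseudocounts, other filters and equal upper quartiles kept each count within 1.5 times.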
